A study of Mus musculus with 27 samples.

Results

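Gene expression in fibrotic liver of mice that received carbon tetrachloride (CCl4) was compared with that in liver of healthy mice, gene by gene. The comparison used 6 of the 27 messenger RNA libraries of the series, 3 of CCl4 liver and 3 of healthy liver, which were chosen by their group labels alone. All 25859 genes of the liver table were considered, and 15036 held enough reads to be tested. The remaining libraries came from liver of CCl4 mice given an extract of the brown alga Sargassum japonica, and from liver organoids. The 3 extract libraries entered the fit only to share its estimate of the spread, and the organoids were not used. The labels describe the control liver as that of healthy mice. They name mineral oil, the vehicle of CCl4, for a group of organoids and not for liver, so it is not given whether the control mice received a vehicle. The sources used here give neither strain, sex and age of the mice nor the dose and length of CCl4 treatment and the time from the last dose. Since they do not say that the numbered libraries are separate animals, p-values measure the spread between libraries, which may be technical.

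CCl4 is a solvent that hepatocytes turn into reactive radicals, mainly through the cytochrome P450 enzyme CYP2E1, which is made around the central vein of the liver lobule. The injury kills hepatocytes there. Hepatic stellate cells, pericytes that store vitamin A, then become contractile myofibroblasts that deposit collagen, macrophages take up dead cells and can degrade scar, and hepatocytes that survive divide. Hepatocytes also differ by place in the lobule: those around the portal vein carry urea synthesis and gluconeogenesis, and those around the central vein carry glutamine synthesis and much of drug metabolism.

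Levels are in CPM, reads of a gene per 1000000 reads of the library after the authors' scaling factor, and where 3 values are given for a group they are those of its replicates 1, 2 and 3 in that order. Differences are log2 fold changes, CCl4 over healthy liver, with their standard error, and a gene was called when its Benjamini-Hochberg adjusted p from limma over all genes tested was under 0.05. The libraries held 45064761 to 64842274 reads in healthy and 47689518 to 52314230 in CCl4 liver, and 17401 to 17769 genes had a read in CCl4 libraries against 16464 to 16803 in healthy ones. Libraries of 1 group differed by far more than counting allows, and the variance between a pair of them was 33.9 to 124.4 times what counting gives. Of the genes tested, 54.0% changed: 28.5% were higher in CCl4 liver (4290 genes) and 25.5% were lower (3834 genes). A list of genes must be read against these shares, and a list of abundant genes against those at its level. Of genes at 100 to 1000 CPM 56.1% fell, and of those at 1000 CPM and over 72.6% fell, as given below. The median difference over all genes was close to 0 (0.000322). This balance depended on the authors' scaling factors, which were 0.854 to 0.923 in healthy and 1.091 to 1.217 in CCl4 libraries. Without these factors, with library size as the only scaling, the median gene moved up by 0.382, which turned the calls into 7228 higher and 1389 lower ones, so that 83.9% of calls were higher against 52.8%. Counts with that scaling are given beside some lists only. Lists given without them can hold more rises or fewer falls with it as well. Members named as exceptions to the direction of their list were chosen after their values were seen.

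Large rises outnumbered large falls. The share of genes that fell grew with the level of the gene, and the share that rose was largest at 1 to 10 CPM. By a log2 of at least 1, 2682 genes rose and 787 fell. By at least 3, 458 rose and 66 fell, and by at least 5, 114 rose and 20 fell. The level of a gene was taken as its mean CPM in the group where it was higher. Of 2166 genes under 1 CPM, 31.3% rose and 4.52% fell, and of 4246 genes at 1 to 10 CPM, 44.2% rose and 13.1% fell. The 7035 genes at 10 to 100 CPM held the most falls, 2265 (32.2%), beside 1541 rises (21.9%). Among 1454 genes at 100 to 1000 CPM, 13% rose and 56.1% fell, and among the 135 genes at 1000 CPM and over, 3 rose and 98 (72.6%) fell.

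**Figure D1:**
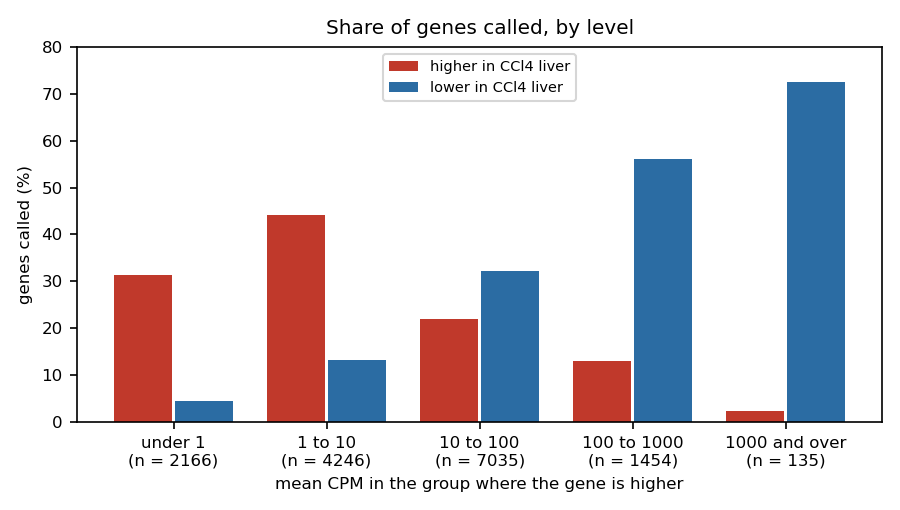
Share of tested genes called higher (red) or lower (blue) in CCl4 liver, in percent, for 5 classes of mean CPM in the group where the gene is higher, with the number of genes in each class under the bars. From the second class to the fifth the share of higher genes goes from 44.2% to 2.22% and that of lower genes from 13.1% to 72.6%.

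Markers of liver were present in all 6 libraries. Albumin (Alb), the main protein of plasma, held 93781, 83991 and 97180 CPM in healthy and 76639, 80823 and 80212 CPM in CCl4 liver. Wt1, a factor of mesothelial cells that cover the liver, rose from 0.21, 0.168 and 0.166 CPM to 2.13, 2.24 and 1.53 CPM, and Msln and Upk3b, 2 other mesothelial markers, rose as well, and the part of mesothelial RNA in other results was not tested. The pancreatic genes Prss2, Cpa1, Pnlip and Cel did not pass the filter on low reads, and the pancreatic elastase Cela2a did, at 0.316, 0.0962 and 0.387 CPM in healthy and 0.198, 0.298 and 0.138 CPM in CCl4 liver, and was not called. Alas2, the haem synthase of red cell precursors, fell (log2 -1.58 ± 0.17, adjusted p = 1.18e-05), while the globin genes Hba-a1, Hba-a2 and Hbb-bs, a mark of blood in the sample, were not called: Hbb-bs held 17, 9.57 and 25.8 CPM in healthy and 13.5, 15.8 and 23.6 CPM in CCl4 liver. In bulk tissue, fewer cells of a type and less RNA per cell cannot be told apart, which touches every result below.

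CCl4 replicate 3 lay farthest from the healthy libraries. It had the highest CCl4 value for 62.4% of the 4290 higher genes and the lowest for 63.1% of the 3834 lower genes, while CCl4 replicate 2 lay nearest to the healthy libraries for 57.6% and 58.8% of them. The distance was uneven across gene groups. Against the mean of CCl4 replicates 1 and 2 (with 0.1 CPM added), the median log2 ratio of replicate 3 was 1.42 over 16 markers of bile duct cells and 1.28 over 17 markers of contractile myofibroblasts. It was -0.42 over 45 cytochromes P450, 0.12 over 35 mitotic genes and 0.17 over 15 genes of scar-associated macrophages. Without this library 7106 genes were called, and 6948 of the 8124 calls were kept.

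**Figure D2:**
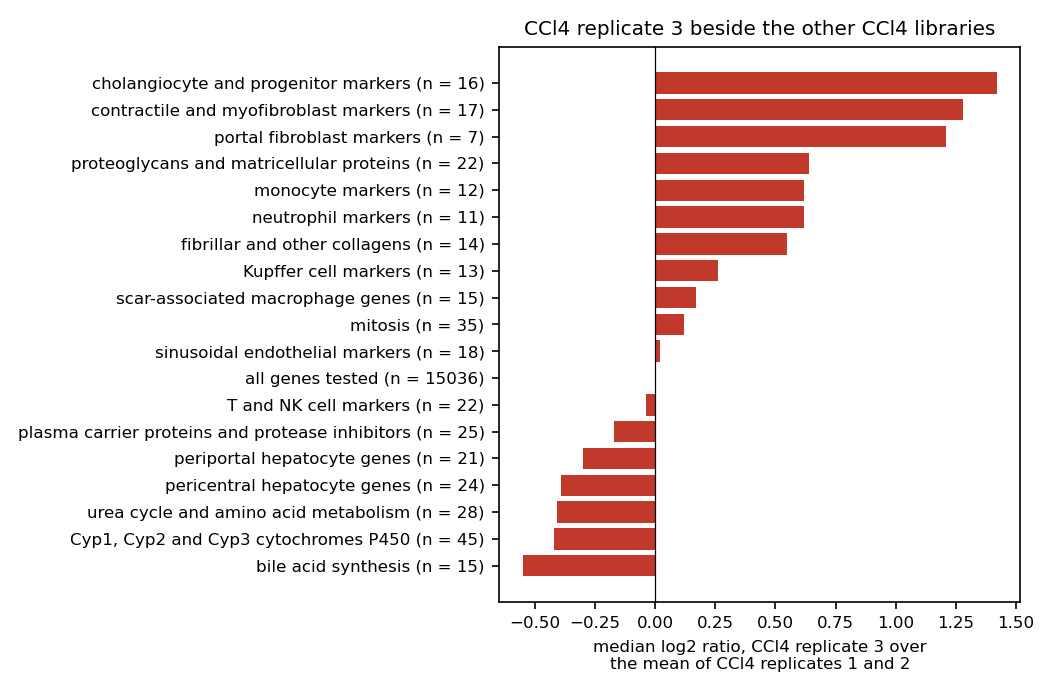
Median log2 ratio of CCl4 replicate 3 over the mean of CCl4 replicates 1 and 2 for the members of each gene list, with the number of members tested. Duct, myofibroblast and portal fibroblast markers are highest in replicate 3, bile acid genes (-0.55) are lowest, P450 genes lie at -0.42, and the median of all genes (grey) is near 0.

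Collagens of the scar were higher in CCl4 liver. Of 14 tested genes of fibrillar and other collagens, 13 rose and 1 fell, with a median log2 change of 3.05. Col1a1, a chain of type I collagen, held 3.23, 5.63 and 3.04 CPM in healthy and 284, 184 and 366 CPM in CCl4 liver. The gene spans chromosome 11, 94936224 to 94953042 of GRCm38.p6 (mm10), the build of all coordinates here, which are those of whole genes in RefSeq. The groups did not overlap, and the difference was 6.12 ± 0.27 (adjusted p = 1.49e-08). Its partner chain Col1a2 went from 6.54, 10.9 and 8.29 CPM to 186, 142 and 212 CPM, a difference of 4.40 ± 0.19. Col3a1, the collagen of reticular fibres, went from 15.4, 20 and 15.1 CPM to 431, 336 and 576 CPM, and Col6a3, a chain of microfibrillar type VI collagen, from 6.98, 8.51 and 5.9 CPM to 109, 88.9 and 123 CPM. Summed over the list, collagen reads were 175, 192 and 166 CPM in healthy and 1320, 1054 and 1653 CPM in CCl4 liver. The exception was Col5a3, a chain of type V collagen, which fell by 1.19 ± 0.14 (adjusted p = 3.46e-05).

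The enzymes that fold and cross-link collagen rose with it: 17 of 20 were higher and Bmp1, which trims the other end of procollagen than ADAMTS2, was lower, though not with library size alone. The median was 1.87. Lox, the lysyl oxidase that starts the cross-links, held 0.14, 0.385 and 0.0369 CPM in healthy and 6.61, 5.27 and 13.1 CPM in CCl4 liver, where replicate 3 was highest. Its difference was 5.45 ± 0.52 (adjusted p = 5.23e-06), and it moved to 6.09 without healthy replicate 2 and to 4.82 without healthy replicate 3. Serpinh1, the collagen chaperone HSP47, rose from 10.6, 11.3 and 11.2 CPM to 74.7, 56.6 and 108 CPM. Fkbp10, a prolyl isomerase of procollagen, rose by 3.68 ± 0.26, and Adamts2, which trims the amino end of procollagen, by 2.87 ± 0.18.

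Proteoglycans and matricellular proteins were less uniform in size. Of 22 tested, 19 rose, and Ecm1, a secreted protein that hepatocytes make, fell, with a median of 2.66. Lum (lumican), which spaces collagen fibrils, went from 6.33, 8.92 and 6.89 CPM to 59.6, 69 and 74.6 CPM, a difference of 3.20 ± 0.16 (adjusted p = 3.17e-08). Dcn (decorin), a related proteoglycan that binds fibrils and TGF-β, was already at 127, 156 and 137 CPM in healthy liver and reached only 205, 253 and 235 CPM, a difference of 0.72 ± 0.12. Fn1 (fibronectin), which hepatocytes also make for plasma, held 2504, 2207 and 2121 CPM in healthy and 2129, 2336 and 1719 CPM in CCl4 liver, the groups overlapped, and it was not called (log2 -0.15 ± 0.15, adjusted p = 0.417). Eln (elastin) held 1.56, 1.95 and 1.99 CPM in healthy and 23.2, 17.1 and 58.8 CPM in CCl4 liver, where replicate 3 was highest.

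Genes of the basement membrane, the sheet of laminin and type IV collagen that healthy sinusoids hold only sparsely, rose in 14 of 20 cases and fell in 2 (in 1 without replicate 1 of either group or CCl4 replicate 3). The median was 1.51. Col4a1 went from 42.5, 40.5 and 28.4 CPM to 218, 165 and 216 CPM (2.44 ± 0.15, adjusted p = 1.77e-07), and the laminin chain Lama2 from 2.1, 1.92 and 1.57 CPM to 8.66, 8.39 and 8.1 CPM. Summed CPM of the list overlapped between the groups, at 1501, 1355 and 1437 CPM in healthy and 1480, 1405 and 1317 CPM in CCl4 liver. The falling members were Col18a1, which encodes the precursor of endostatin and is made by hepatocytes, and the laminin chain Lama3.

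Enzymes that degrade matrix rose beside those that build it. Of 20 matrix proteases, 16 were higher, with a median of 2.71. Mmp12, the elastase of macrophages, changed most, from 0.614, 0.938 and 0.663 CPM to 49.2, 61.2 and 53.3 CPM (6.15 ± 0.24, adjusted p = 7.75e-09). Mmp13, a collagenase that can open fibrillar collagen, rose from 0.123, 0.288 and 0.276 CPM to 1.77, 2.66 and 1.62 CPM, and Mmp2, a gelatinase of stellate cells, from 1.65, 2.26 and 1.95 CPM to 14.3, 16.4 and 15.5 CPM. Plat, the tissue plasminogen activator, rose by 4.81 ± 0.26. Of 10 inhibitors, 6 rose and Serpinf2, the plasmin inhibitor of plasma, fell, though not with library size alone. Timp1, the inhibitor most tied to fibrosis, went from 0.105, 0.24 and 0.0737 CPM to 4.35, 3.33 and 12.4 CPM (5.12 ± 0.47, adjusted p = 3.85e-06), highest in replicate 3. Timp2 was more even and rose by 2.06 ± 0.16, with 9.35, 10.6 and 12.8 CPM in healthy and 41.2, 39.7 and 57 CPM in CCl4 liver. Timp3 rose by 0.70 ± 0.20 (adjusted p = 0.012).

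Markers of contractile myofibroblasts were higher in CCl4 liver, and most markers of quiescent stellate cells were higher too. Of 17 contractile and myofibroblast markers 15 rose. Their median was 2.49, and without CCl4 replicate 3 it was 1.66, with 14 higher. Acta2 (smooth muscle actin, chromosome 19, 34240336 to 34255585) held 1.74, 2.09 and 1.58 CPM in healthy and 32.2, 31.6 and 116 CPM in CCl4 liver. Replicate 3 stood above the other CCl4 libraries by over 3 times, and the difference was 4.75 ± 0.45 (adjusted p = 4.91e-06) with it and 4.12 without it. Tagln (transgelin), an actin-binding protein, showed the same order, with 5.58, 4.78 and 7.26 CPM in healthy and 48.6, 47.7 and 122 CPM in CCl4 liver. Pdgfrb, the PDGF receptor of stellate cells, was more even, with 8.1, 9.13 and 8.11 CPM against 29.1, 28.4 and 36.8 CPM. Of 15 quiescent stellate markers 10 rose and Ecm1 fell, with a median of 0.80. Reln (reelin) rose from 52, 64.6 and 45.2 CPM to 149, 191 and 115 CPM (1.47 ± 0.18, adjusted p = 3.48e-05), and here replicate 3 was the lowest CCl4 library. Lrat, which makes the retinyl esters that these cells store, held 15, 13.4 and 10.3 CPM in healthy and 20, 31.4 and 12.6 CPM in CCl4 liver and was not called (0.64 ± 0.27, adjusted p = 0.061). Without CCl4 replicate 3 Lrat was called higher (0.97, adjusted p = 0.00304), as it was with library size alone (1.03). All 7 portal fibroblast markers tested rose, and 5 without replicate 2 of either group or CCl4 replicate 3. Upk1b was not called without replicate 2 or 3 of either group. They include Msln and Upk1b, which mesothelial cells also make, and Cd34, which capillaries make, so the list is not specific to portal fibroblasts. Its summed level was 9.71, 10.1 and 10.7 CPM in healthy and 48, 39.5 and 105 CPM in CCl4 liver.

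**Figure D3:**
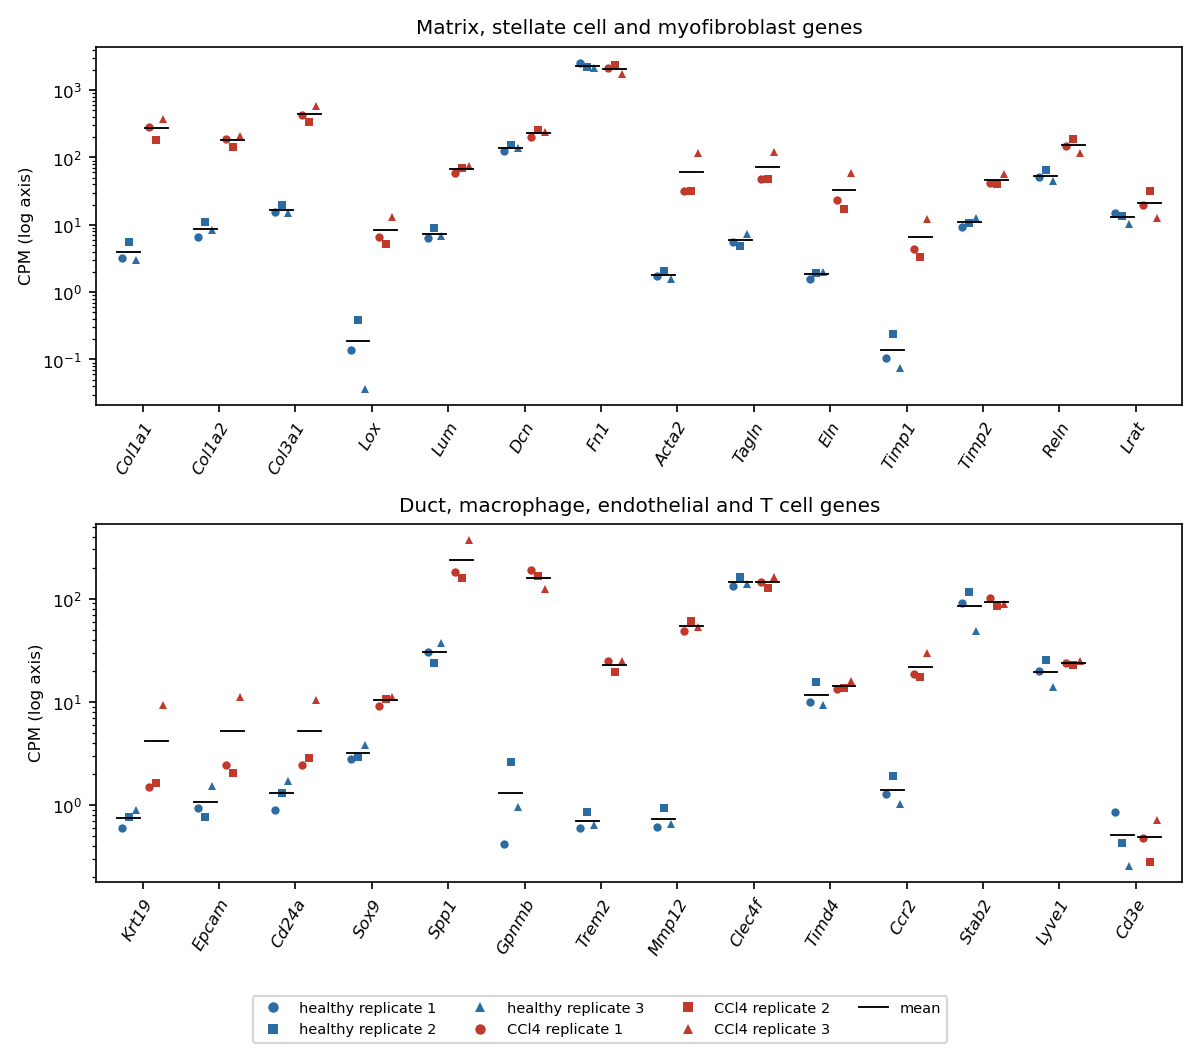
CPM on a log axis in each of the 6 libraries for genes of matrix, stellate cells and myofibroblasts (top) and of bile ducts, macrophages, endothelium and T cells (bottom). Circles, squares and triangles are replicates 1, 2 and 3, blue is healthy and red is CCl4 liver, and lines are group means. The red triangles stand apart for Acta2, Tagln, Eln, Krt19, Epcam and Cd24a and lie among the other red points for Mmp12 and Trem2.

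TGF-β drives stellate cells to make matrix, is stored in latent form by LTBP proteins, is freed by integrins and signals through SMAD factors. Of 22 ligands, receptors and activators, 17 rose and Inhbe, an activin chain of hepatocytes, fell by 1.02 ± 0.19. A second such chain, Inhbc, was called lower too, but not without replicate 2 or 3 of healthy liver or any CCl4 replicate. The median was 0.98. Tgfb1 went from 7.61, 7.67 and 6.6 CPM to 17.7, 16.3 and 25.3 CPM, a difference of 1.41 ± 0.16 (adjusted p = 1.68e-05). Tgfb3 changed more, by 3.38 ± 0.30, from 0.316, 0.529 and 0.627 CPM to 4.08, 4.29 and 8.36 CPM. Among the storage proteins Ltbp2 rose by 4.28 ± 0.25 and Ltbp1 by 1.92 ± 0.18, and the receptor Tgfbr2 rose by 1.18 ± 0.13. Of 16 SMADs and response genes 10 rose and 2 fell, the signal carriers Smad2 and Smad4, neither with library size alone. Without replicate 1 of either group, healthy replicate 2 or CCl4 replicate 3 only 1 of them fell. Pmepa1, a feedback inhibitor, rose from 1.6, 1.11 and 1.36 CPM to 7.08, 6.11 and 12.2 CPM. Ccn2 (CTGF), a classic target, held 16.8, 18.1 and 16.1 CPM in healthy and 24.1, 17.5 and 48.1 CPM in CCl4 liver. It was not called (0.68 ± 0.28, adjusted p = 0.058), though it was without CCl4 replicate 2 (1.00, adjusted p = 0.00557) and with library size alone (1.06). Of 17 genes of PDGF, HGF and VEGF signalling 10 rose and Egfr, Vegfa and Met, the HGF receptor, fell, the last not without healthy replicate 2 or with library size alone. Without CCl4 replicate 3 5 were called higher. Pdgfb, the ligand that makes stellate cells divide, rose by 2.13 ± 0.21. Egfr, the EGF receptor that hepatocytes carry, was at 1342, 1108 and 847 CPM in healthy and 242, 314 and 227 CPM in CCl4 liver and fell by 2.06 ± 0.20 (adjusted p = 7.03e-06).

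Genes of cell division had the highest median of the 69 lists, which were chosen with earlier results of these data known. All 35 mitotic genes were higher, with changes between 3.85 and 8.06 and a median of 6.24. Their summed level was 30.8, 45.3 and 23 CPM in healthy and 2032, 1604 and 1938 CPM in CCl4 liver. Cdk1, the kinase that starts mitosis, held 1.05, 1.32 and 1.01 CPM in healthy and 76.1, 64.5 and 88.8 CPM in CCl4 liver (6.03 ± 0.22, adjusted p = 6.04e-09). Cdc20, which activates the complex that starts anaphase, went from 0.403, 0.673 and 0.313 CPM to 103, 76.2 and 103 CPM, a difference of 7.61 ± 0.28. Mki67, the proliferation antigen Ki-67, reached 286, 215 and 227 CPM from 1.68, 4.28 and 0.774 CPM. The CCl4 libraries lay close together here and the healthy ones, with few reads, did not. Ccnb1 (cyclin B1) was at 0.281, 0.769 and 0.0369 CPM in healthy liver and its difference of 8.06 ± 0.63 moved to 8.88 without healthy replicate 2 and to 7.14 without healthy replicate 3. Mki67 moved from 7.05 to 7.67 without healthy replicate 2. Of 32 genes of S phase and replication 31 rose, with a median of 2.30. Mcm6, part of the replicative helicase, went from 4, 3.94 and 3.59 CPM to 56.4, 60.02 and 66.1 CPM, and Mcm5, another part, from 2.42, 2.02 and 1.92 CPM to 37.1, 34.2 and 42.5 CPM (4.14 ± 0.14, adjusted p = 3.96e-09). Mcm10, which helps to start replication, was the exception and fell by 2.48 ± 0.13 (adjusted p = 4.67e-08). Of 15 regulators of G1, 8 rose (12 with library size alone). They included both the driver Ccnd1 (cyclin D1), at 16, 15.5 and 12.6 CPM against 105, 86.5 and 128 CPM, and the inhibitor Cdkn1a (p21), at 11.7, 36.6 and 54.3 CPM against 107, 83.4 and 105 CPM. Healthy replicate 1 was low for Cdkn1a, and its difference of 1.78 ± 0.41 was 1.13 without it.

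Since these genes moved together, their promoters are shown, from RefSeq for GRCm38.p6 (mm10), 160 bases before to 25 bases after the start of the transcript, with matches to short motifs in capitals. In mitotic genes the motifs marked are the CCAAT box, read as ATTGG on the other strand, and the CHR element, TTTGAA or TTCGAA, which together are known from genes of the G2 phase and mitosis. In the S phase gene the capitals mark the CCAAT box and E2F sites (TTTGGCGC, TTTCGCGC, TTTCCCGC or TTTGCCGC on either strand).
Cdk1, chr10:69352888-69353072, minus strand: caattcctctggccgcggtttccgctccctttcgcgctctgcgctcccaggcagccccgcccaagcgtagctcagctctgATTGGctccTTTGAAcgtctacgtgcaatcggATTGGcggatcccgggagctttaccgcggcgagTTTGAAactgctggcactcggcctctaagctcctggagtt
Cdc20, chr4:118437319-118437503, minus strand: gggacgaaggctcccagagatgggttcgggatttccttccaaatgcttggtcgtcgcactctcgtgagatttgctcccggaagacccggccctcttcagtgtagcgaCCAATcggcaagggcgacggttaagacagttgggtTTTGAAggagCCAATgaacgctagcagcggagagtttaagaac
Mcm5, chr8:75109349-75109533, plus strand: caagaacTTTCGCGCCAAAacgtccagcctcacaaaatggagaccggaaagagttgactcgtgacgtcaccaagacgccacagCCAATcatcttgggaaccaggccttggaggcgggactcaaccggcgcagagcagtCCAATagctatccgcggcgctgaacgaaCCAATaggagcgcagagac
In Cdk1 the CHR element nearest to the start lies 15 to 10 bases before it, and in Cdc20 18 to 13 bases before it. In Mcm5 2 overlapping E2F matches lie 153 to 142 bases before the start. Over 300 bases (250 before and 50 after the start, both strands) a CHR element was found in 23 of 29 mitotic genes with a promoter in the table (79.3%), against 14.1% of the 11619 tested genes with one. A CCAAT box was found in 79.3% of mitotic promoters against 38.7%. It was not particular to them, with 61.5% of S phase, 66.7% of plasma carrier and 57.9% of urea cycle promoters. Other lists held fewer, down to 27.8% for hepatocyte transcription factors and nuclear receptors. An E2F site was found in 10 of 26 S phase promoters (38.5%) against 3.92%, and in 1 of 29 mitotic ones (3.45%), that of Cdk1, where it stays in lower case above. Searches for 3 more motifs found a CArG box, the site of serum response factor, in 2 of 12 promoters of contractile genes (16.7%) against 1.27% of all. The AP-1 site TGACTCA was found in 3 of 13 promoters of matrix proteases (23.1%), against 3.9% of all. It was also found in 5 of 21 promoters of plasma carriers and protease inhibitors (23.8%), all but that of Itih2 being Serpina1 copies that share sequence. The STAT site TTCNNNGAA was found in 0 of 12 promoters of male-biased genes against 7.05%. All are matches of letters on both strands of a fixed window, and no binding was measured.

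Targets of p53, the factor that answers DNA damage, mostly rose: 11 of 16 were higher. Tnfrsf10b, a death receptor, went from 0.14, 0.192 and 0.24 CPM to 5.69, 4.85 and 5.98 CPM (4.62 ± 0.24, adjusted p = 4.19e-08), and Eda2r, a receptor of the same family, from 0.701, 1.13 and 0.405 CPM to 9.89, 7.94 and 8.94 CPM. Gdf15, a stress cytokine and the exception, fell from 10.6, 27 and 18.2 CPM to 7.95, 5.99 and 8.58 CPM. Of 16 genes of cell death 9 rose, and 15 with library size alone. Mlkl, the executor of necroptosis, rose by 1.48 ± 0.16, and Bid, which links death receptors to mitochondria, fell by 1.5 ± 0.12 (adjusted p = 1.02e-06).

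Genes of macrophages that gather in scars and of resident Kupffer cells are given side by side. Of 15 scar-associated genes 13 rose, with a median of 2.87. Gpnmb, a glycoprotein of lipid-laden macrophages (chromosome 6, 49036518 to 49058182), held 0.421, 2.6 and 0.958 CPM in healthy and 190.1, 166 and 125 CPM in CCl4 liver. Its difference was 7.22 ± 0.50 (adjusted p = 4.2e-07), 6.61 without healthy replicate 1 and 7.87 without healthy replicate 2. Trem2, a lipid receptor, went from 0.596, 0.865 and 0.645 CPM to 24.9, 19.3 and 24.9 CPM (4.97 ± 0.19), and Lgals3 (galectin-3) from 3.42, 4.95 and 5.16 CPM to 63.8, 63 and 68.2 CPM. Spp1 (osteopontin), which duct cells also make, went from 30.5, 23.6 and 37.3 CPM to 181, 158 and 367 CPM and was highest in replicate 3. Of 13 Kupffer cell markers 9 rose and 2 fell, the haemoglobin scavenger receptor Cd163 and the iron exporter Slc40a1, neither with library size alone. Slc40a1 kept its call only when healthy replicate 3 was the library left out. The median was 0.80. The list includes the C1q chains, which rose and which other macrophages make too, so it is not specific to resident cells. Clec4f, the lectin that defines these cells, held 134, 161 and 139 CPM in healthy and 146, 127 and 161 CPM in CCl4 liver and was not called (log2 0.00 ± 0.11). With library size alone it was called higher (0.38, adjusted p = 0.0229). Marco, a scavenger receptor, rose from 15.2, 30.8 and 13 CPM to 88.8, 123 and 134 CPM, and Cd5l, which macrophages secrete, from 123, 151 and 113 CPM to 295, 289 and 301 CPM.

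All 12 monocyte markers were higher, with a median of 2.15. Ccr2, the receptor by which monocytes enter tissue, went from 1.28, 1.9 and 1.03 CPM to 18.8, 17.6 and 29.6 CPM (3.94 ± 0.24, adjusted p = 1.7e-07), and Cx3cr1 from 0.807, 1.15 and 1.03 CPM to 15.5, 14.8 and 25.2 CPM. Neutrophil markers rose in 10 of 11 cases from very low levels, with a summed CPM of 4.4, 7.67 and 6.19 in healthy and 20.4, 20.6 and 30.4 in CCl4 liver. S100a9, a chain of the alarmin calprotectin, went from 1.12, 1.59 and 1.49 CPM to 4.28, 4.13 and 7.69 CPM. Ear2, a ribonuclease of eosinophils and macrophages, rose by 1.74 ± 0.21.

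Most T and NK cell markers did not pass the test. Of 22, 4 rose (Cd8a, Cd8b1, Ncr1 and Trdc) and Il2rb, a receptor chain for interleukins, fell (not without replicate 2 of either group). The median was 0.12. Of all genes tested 54.0% changed, but of those under 1 CPM, where most T cell markers lie, 31.3% rose and 4.52% fell. Cd3e, part of the T cell receptor complex, held 0.859, 0.433 and 0.258 CPM in healthy and 0.479, 0.28 and 0.724 CPM in CCl4 liver (log2 0.00 ± 0.43, adjusted p = 0.998), and at under 1 CPM a modest difference may not be detectable. Trdc, the constant region of the delta chain of γδ T cells, changed most, at 0.14, 0.0721 and 0.0737 CPM against 2.51, 8.53 and 4.43 CPM, a difference of 5.16 ± 0.53 (adjusted p = 9.68e-06). Of 12 markers of B and plasma cells 9 rose. Igkc, the kappa light chain, went from 3.86, 3.1 and 3.59 CPM to 8.28, 9.23 and 12.9 CPM, and Igha, the chain of IgA, from 6.72, 5.1 and 5.64 CPM to 11, 13.4 and 21 CPM. Of 11 dendritic cell markers 4 rose (Irf8, Siglech, Flt3 and Cd209a), and 9 with library size alone. Cd209a, a lectin of monocyte-derived dendritic cells, went from 0.0701, 0.12 and 0.203 CPM to 1.55, 1.12 and 2.24 CPM. Of 9 genes of MHC class II 8 rose, with a median of 0.68: H2-Ab1 held 24.9, 25 and 24.7 CPM in healthy and 35.5, 28.7 and 50.5 CPM in CCl4 liver.

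Chemokines, which call leukocytes into tissue, mostly rose, and what the interferon list showed depended on the scaling. Of 20 chemokines 13 rose and Cxcl9, Cxcl12 and Ccl24 fell, none of them with library size alone. Ccl24 was not called without healthy replicate 2 or any of the CCl4 replicates. Also, of 12 chemokine receptors 7 rose. Ccl2, the ligand of CCR2, went from 0.596, 0.481 and 0.295 CPM to 3.32, 3.5 and 4.86 CPM (3.02 ± 0.28, adjusted p = 3.83e-06). Cxcl14 rose by 2.82 ± 0.28, and the receptor Cxcr4 by 2.64 ± 0.26. Of 18 cytokines and receptors 9 rose and Il1r1, Il18 and Tnfrsf1b fell, none of them with library size alone, and the last not without healthy replicate 3 or CCl4 replicate 2. The inflammatory cytokine Il1b held 2.24, 2.33 and 2.52 CPM in healthy and 1.87, 2.58 and 3.02 CPM in CCl4 liver and was not called (adjusted p = 0.888), while Il1rn, the antagonist of its receptor, rose from 1.96, 1.88 and 2.4 CPM to 6.63, 10 and 8.13 CPM. Tnf stayed under 0.5 CPM in each of the 6 libraries. Of 25 interferon response genes 6 rose and 4 fell (Ifit1, Ifit3, B2m and Mx2, none of them with library size alone), with a median of 0.13, and 15 rose with library size alone. Isg15, a standard reporter of interferon, held 6.42, 5.36 and 9.34 CPM in healthy and 4.73, 5.47 and 6.89 CPM in CCl4 liver and was not called.

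Markers of the sinusoidal endothelium mostly did not pass the test. Of 18, 5 rose (Gata4, Kit, Rspo3, Stab1 and Wnt9b), with a median of 0.26, and 11 rose with library size alone. Healthy replicate 3 was low for several of them: Stab2, a scavenger receptor, held 91.5, 116 and 48.7 CPM in healthy and 102, 85.2 and 89.9 CPM in CCl4 liver. Without that library 4 markers rose and 4 fell, without healthy replicate 2, 8 rose, and without CCl4 replicate 1, 3 rose. Wnt9b, a Wnt ligand that endothelium of the central vein supplies to hepatocytes, rose from 2.05, 1.68 and 1.33 CPM to 5.21, 4.29 and 8.24 CPM (1.75 ± 0.29, adjusted p = 0.00034), and Rspo3, which strengthens Wnt signals there, from 5.79, 6.32 and 4.99 CPM to 9.54, 9.71 and 8.67 CPM. Of 14 markers of other endothelium 9 rose and Prox1, which hepatocytes also make, fell, though not with library size alone. Plvap, a protein of the diaphragms of capillary pores, went from 33.9, 38.9 and 36.3 CPM to 78.9, 72.4 and 74.5 CPM, and Cd34, which marks capillaries and portal fibroblasts, from 1.02, 1.73 and 0.921 CPM to 7.62, 6.04 and 17 CPM.

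Markers of bile duct cells rose, and how far depended on 1 library. Of 16 cholangiocyte and progenitor markers 14 rose. Their median was 1.78, and 13 rose without CCl4 replicate 3. Krt19, a keratin of duct cells, held 0.596, 0.769 and 0.903 CPM in healthy and 1.49, 1.63 and 9.44 CPM in CCl4 liver, a difference of 1.88 ± 0.54 (adjusted p = 0.0112) and of 1.03 without replicate 3. Epcam, an adhesion protein of the same cells, was similar, at 0.929, 0.769 and 1.53 CPM against 2.45, 2.07 and 11.1 CPM (1.86 ± 0.52) and 1.10 without it, and Cd24a went from 1.71 ± 0.45 to 1.04. Sox9, the transcription factor of duct cells, was even across CCl4 libraries, at 2.81, 2.96 and 3.87 CPM in healthy and 9.13, 10.8 and 11.1 CPM in CCl4 liver (1.68 ± 0.15, adjusted p = 3.53e-06). Genes of fetal liver rose in 7 of 10 cases, and Peg3, an imprinted gene, fell, though not without healthy replicate 1 or 2 or CCl4 replicate 3 or with library size alone. Afp (alpha-fetoprotein), the fetal counterpart of albumin, had the smallest p among genes of all lists, at 1.7, 1.83 and 1.27 CPM in healthy and 85.2, 105 and 87 CPM in CCl4 liver (5.83 ± 0.14, adjusted p = 5.79e-10). The imprinted fetal RNA H19 rose from 0.0351, 0.144 and 0.0369 CPM to 1.42, 1.58 and 2.5 CPM. Genes of the cytoskeleton and of epithelial injury rose in 18 of 20 cases, among them Anxa2, a membrane-binding annexin, from 8.57, 10.3 and 8.53 CPM to 101, 83.8 and 145 CPM.

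Transcription factors and nuclear receptors that keep hepatocytes differentiated fell, as did most of their list, which also holds the FGF receptor Fgfr4 and its partner Klb. Of its 22 genes 21 were lower. Their median was -0.77, and 14 were lower with library size alone. Hnf4a, the central factor of hepatocytes, held 965, 1071 and 1050 CPM in healthy and 503, 534 and 411 CPM in CCl4 liver and fell by 1.10 ± 0.12 (adjusted p = 1.43e-05). Cebpa, which drives metabolic genes, went from 355, 318 and 341 CPM to 132, 146 and 109.7 CPM. Nr1i3 (CAR), the receptor that switches on drug metabolism, went from 89.4, 111 and 105 CPM to 24.3, 51.7 and 21.1 CPM, with replicate 2 highest in CCl4 liver.

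Among the proteins that hepatocytes secrete, Alb (chromosome 5, 90460870 to 90476602) was not called (log2 -0.21 ± 0.47, adjusted p = 0.733), although its groups did not overlap in CPM. Its error, like every error here, comes from the fit to 9 libraries, with a variance shared with genes of like level. It is thus not the spread of the healthy and CCl4 libraries alone. Its promoter is shown as one that holds a half-site of HNF1 (GTTAAT on either strand, in capitals), a liver factor known to act on it.
Alb, chr5:90460710-90460894, plus strand: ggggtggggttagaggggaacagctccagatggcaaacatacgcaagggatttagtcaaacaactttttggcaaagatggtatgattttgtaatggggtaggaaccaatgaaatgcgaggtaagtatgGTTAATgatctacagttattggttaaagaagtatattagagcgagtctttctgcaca
The half-site lies 32 to 27 bases before the start. It was found in 11 of 21 promoters of plasma carriers and protease inhibitors (52.4%), several of them Serpina1 copies that share sequence, against 4.63% of the 11619 tested genes. Of 25 such genes 17 fell and Ahsg rose, and with library size alone 9 fell and 4 rose. As a share of all reads the list held 16.55% in healthy and 18.81% in CCl4 liver on average, whereas in CPM of the effective library size it fell to 0.871 of the healthy level, so its direction depends on the scaling. Serpina1e, a copy of the antitrypsin gene family whose members share reads, fell from 3891, 5051 and 4171 CPM to 818, 1751 and 1255 CPM. Ahsg (fetuin-A), a carrier of calcium phosphate, went from 7695, 7664 and 8962 CPM to 13322, 13468 and 13027 CPM, with no overlap. Its difference of 0.71 ± 0.22 had an adjusted p of 0.0151, which was 0.0509 without healthy replicate 1, 0.0538 without CCl4 replicate 1 and 0.0625 with a replicate block.

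Complement and clotting factors fell more often than they rose, and among the rises were the C1q chains and F13a1, which macrophages make. The counts of falls for complement, clotting and apolipoprotein genes are near the shares of all abundant genes. Of all genes at 100 to 1000 CPM 56.1% fell, and of those at 1000 CPM and over 72.6%. Of 24 complement genes 15 fell and 3 rose, the latter being the C1q chains of macrophages, against 10 and 5 with library size alone. C1qb went from 14, 16.7 and 13.4 CPM to 29.8, 32.8 and 42.7 CPM. C8b, part of the membrane attack complex, fell from 389, 371 and 375 CPM to 166, 190.2 and 127 CPM. Of 23 clotting genes 14 fell and 2 rose (Tfpi and F13a1), against 10 and 6 with library size alone. Fga, a fibrinogen chain, fell by 0.98 ± 0.18 (adjusted p = 0.000679), and F13a1, the factor XIII chain that macrophages make, rose from 0.175, 0.529 and 0.369 CPM to 4.23, 3.17 and 9.12 CPM. Of 17 apolipoproteins 10 fell, 6 with library size alone, and Apoc2 and Apoa4 rose. Apoa5, which promotes clearance of triglyceride, fell from 1774, 1401 and 1489 CPM to 504, 585 and 434 CPM, while Apoa4 rose from 64.1, 39.95 and 49.1 CPM to 509.7, 644 and 621 CPM (3.55 ± 0.17, adjusted p = 2.28e-08). Acute phase genes, which hepatocytes switch on in inflammation, differed in direction: of 20, Lcn2 and Saa3 rose and 7 fell, against 6 and 5 with library size alone. Lcn2 (lipocalin-2) rose from 32.2, 12.2 and 24.8 CPM to 166, 189 and 248.7 CPM, and Saa4 fell from 429, 549.6 and 948 CPM to 224, 181 and 144 CPM.

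Among hepatocyte genes of the central and of the portal zone more fell than rose, and the difference between these lists was not tested. Abundant genes of any kind often fell, 56.1% of those at 100 to 1000 CPM and 72.6% of those at 1000 CPM and over. Of 24 pericentral genes 15 fell and 3 rose (Lect2, Gstm3 and Slc1a4), with a median of -0.99. With library size alone 12 fell and 6 rose. Their summed level was 13410, 14350 and 14500 CPM in healthy and 2613, 3813 and 1854 CPM in CCl4 liver. In healthy liver Cyp2e1 was the largest part of this sum. Cyp2e1 (chromosome 7, 140763819 to 140774990), the enzyme that activates CCl4, held 7316, 8875 and 9072 CPM in healthy and 603, 1129 and 256 CPM in CCl4 liver, with replicate 2 highest and replicate 3 lowest, and fell by 3.91 ± 0.39 (adjusted p = 7.63e-06). Glul, the glutamine synthetase of the cells next to the central vein, was even within the groups, at 793, 719.7 and 709 CPM against 83, 80.7 and 82.4 CPM, and fell by 3.17 ± 0.10 (adjusted p = 2.22e-09). Slc1a2, the glutamate transporter of the same cells (chromosome 2, 102658239 to 102790784), was nearly lost, from 208, 198 and 174 CPM to 0.827, 0.245 and 1.38 CPM, a difference of -8.10 ± 0.62, and of -7.44 without CCl4 replicate 2. Its relative Slc1a4, a transporter of neutral amino acids on the same list, rose from 3.66, 4.64 and 3.24 CPM to 28.7, 28.3 and 25.1 CPM. Axin2, a Wnt target, held 7.66, 9.5 and 8.68 CPM in healthy and 9.99, 14.5 and 6.62 CPM in CCl4 liver and was not called (0.20 ± 0.24, adjusted p = 0.511). With library size alone it was called higher (0.58, adjusted p = 0.0438).

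Of 21 periportal genes 12 fell and 3 rose (Ctsc, Cdh1 and Aldh1b1). The share that fell was near the 56.1% of all genes at 100 to 1000 CPM. Their median was -0.45, and 7 fell and 6 rose with library size alone. Their summed level was 24080, 20780 and 22700 CPM in healthy and 16330, 16630 and 12300 CPM in CCl4 liver, and the groups did not overlap. Pck1, which starts gluconeogenesis, fell from 3123, 2548 and 3501 CPM to 1070, 970.0 and 757 CPM, whereas Cps1, the first enzyme of the urea cycle, held 7155, 6068 and 4887 CPM in healthy and 5784, 5871 and 3581 CPM in CCl4 liver and was not called (adjusted p = 0.35). Cdh1 (E-cadherin) and Aldh1b1, a mitochondrial aldehyde dehydrogenase, rose by 1.53 ± 0.13 and 2.05 ± 0.14. Of 28 genes of the urea cycle and amino acid metabolism 23 fell, against 16 lower and 1 higher with library size alone. Csad, which makes taurine, fell most, from 203, 289 and 191 CPM to 28.8, 42.3 and 17.5 CPM.

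**Figure D4:**
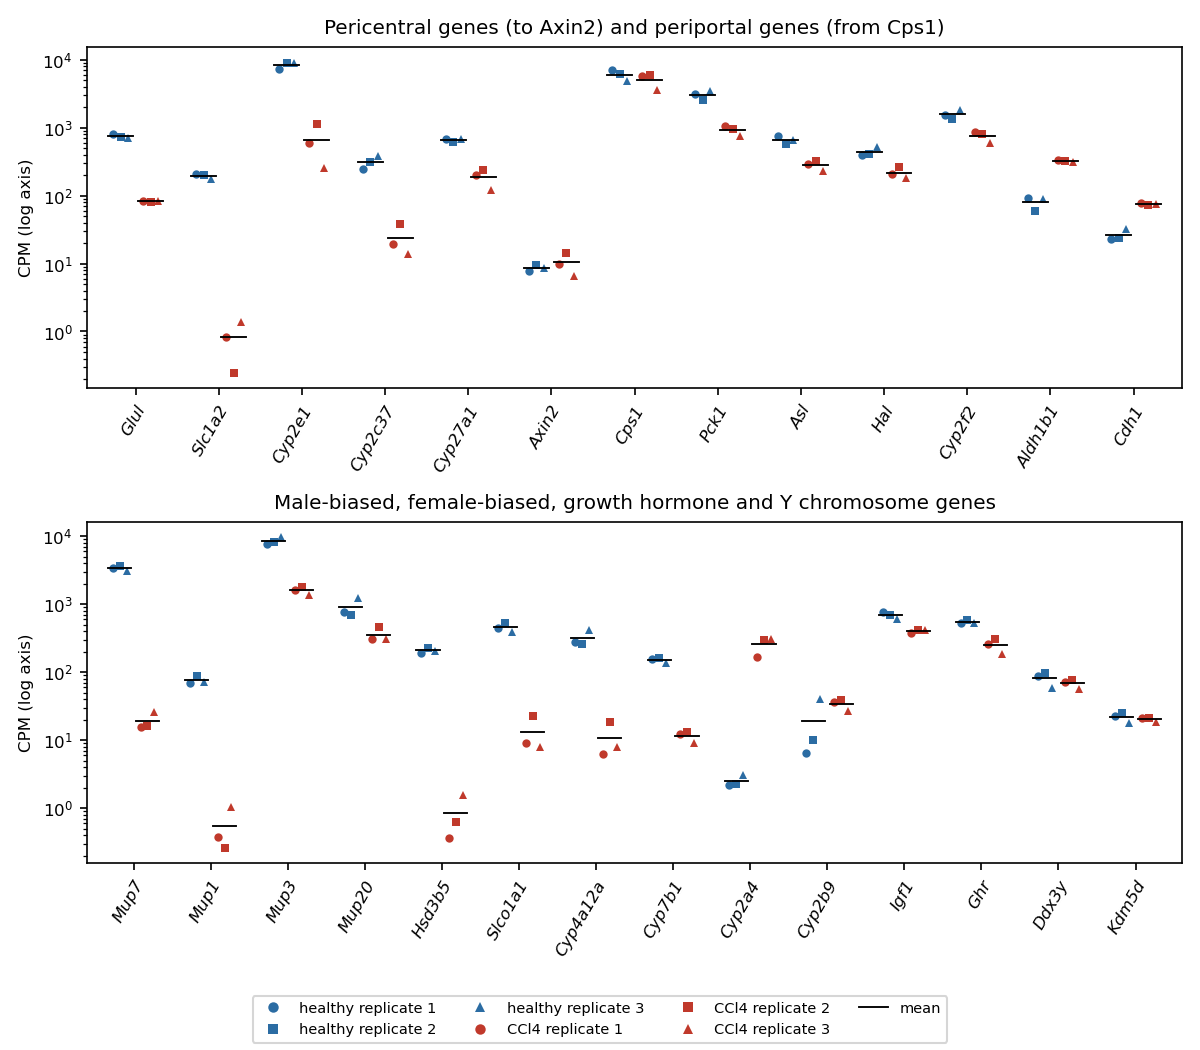
CPM on a log axis in each of the 6 libraries for pericentral genes up to Axin2 and periportal genes from Cps1 on (top), and for male-biased, female-biased, growth hormone and Y chromosome genes (bottom). Circles, squares and triangles are replicates 1, 2 and 3, blue is healthy and red is CCl4 liver, and lines are group means. Glul, Slc1a2, Cyp2e1, Mup7, Mup1 and Hsd3b5 lie far lower in CCl4 liver, while Axin2, Cps1, Ddx3y and Kdm5d overlap.

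Enzymes of drug metabolism fell broadly, with exceptions in each family. Of 45 cytochromes of families 1 to 3, 29 fell and 8 rose (5 when replicate 1 or 2 of either group was left out), and their summed level was 26750, 30420 and 30440 CPM in healthy and 10390, 13060 and 7385 CPM in CCl4 liver. Cyp2c38, one of many close copies between which reads can be split, fell from 73.9, 59.1 and 58.9 CPM to 1.12, 2.63 and 0.827 CPM, and Cyp3a11, the main steroid and drug hydroxylase of its family, from 4954, 6263 and 5174 CPM to 3419, 3172 and 1836 CPM. Cyp2a4, a steroid hydroxylase (chromosome 7, 26307192 to 26315088), rose from 2.19, 2.28 and 3.1 CPM to 166, 301 and 307 CPM (6.62 ± 0.27, adjusted p = 1.04e-08). Cyp2a5, a nearly identical copy that can share its reads, fell by 2.06 ± 0.25 (adjusted p = 3.16e-05), so the split between them is uncertain. Of 37 conjugation enzymes 27 fell and 5 rose, against 19 and 6 with library size alone. The rise of Gsta1, a glutathione transferase, was 3.20 ± 0.29 (adjusted p = 3.96e-06), and those of Gsta4, Mgst3, Gstm3 and Ugt2b37 were under 1, with 3 of the 5 called without replicate 1 of either group or without CCl4 replicate 3. The sulfotransferase Sult2a8 went from 625, 855 and 671 CPM to 71.4, 109.6 and 20.3 CPM, and its fall by 3.71 ± 0.44 was smaller without CCl4 replicate 3 (log2 -3.01). Of 14 carboxylesterases, enzymes encoded by related copies, 9 fell and 2 rose, Ces2e and Ces2g. When any single library other than healthy replicate 1 was left out, Ces2e was not called.

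Of 15 genes of bile acid synthesis 12 fell and Cyp39a1, an oxysterol hydroxylase, rose. Cyp8b1, which sets the share of cholic acid, fell from 469, 327 and 324 CPM to 55.6, 47.2 and 34 CPM (-3.04 ± 0.28, adjusted p = 3.98e-06), and Cyp7b1, of the alternative pathway, from 156, 162.7 and 137 CPM to 12.6, 13.1 and 9.08 CPM. Cyp7a1, the rate-limiting enzyme, held 446, 128 and 127 CPM in healthy and 159.9, 188 and 48.7 CPM in CCl4 liver, where single libraries stood apart in both groups, and was not called (log2 -0.77 ± 0.51, adjusted p = 0.224, and -0.17 without healthy replicate 1). Of 24 transporters 17 fell and the exporters Abcb1a, Abcc4 and Slc51b rose. Abcb11, the export pump of bile salts, fell from 1124, 985 and 895 CPM to 446, 676 and 342 CPM.

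Genes that male mice express more than females in liver, under the pulses of growth hormone of males, had the lowest median of the 69 lists. This ranking has the same limit, that the lists were chosen with earlier results of these data known. All 19 male-biased genes were lower, with a median of -4.99. Their summed level was 18930, 21270 and 21630 CPM in healthy and 3113, 4422 and 3218 CPM in CCl4 liver. Mup7, a major urinary protein (chromosome 4, 60066469 to 60070475), went from 3455, 3716 and 3148 CPM to 15.9, 16 and 26.5 CPM and fell by 7.5 ± 0.23 (adjusted p = 2.22e-09). Genes of this family are near-identical copies whose reads can be split between them, so single members are uncertain. They did not move as 1 block: Mup3 fell by 2.41 ± 0.16, from 7692, 8353 and 9666 CPM to 1648, 1808 and 1388 CPM, and Mup20 by 1.31 ± 0.21. Hsd3b5, a steroid dehydrogenase with relatives on the same chromosome (chromosome 3, 98618636 to 98645534), had the most negative difference of all genes tested, from 195, 229 and 209.5 CPM to 0.364, 0.631 and 1.59 CPM (-8.12 ± 0.41, adjusted p = 3.62e-08). Slco1a1, a transporter of bile acids and steroids, went from 454, 536 and 387 CPM to 9.24, 22.8 and 7.88 CPM.

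Of 15 female-biased genes 5 rose (Cyp2a4, Cyp3a44, Cyp2b13, Cyp2b9 and Cyp17a1) and Cyp2c69 and Prlr fell. Besides Cyp2a4, the P450 gene Cyp3a44 rose from 0.684, 0.553 and 0.571 CPM to 2.2, 2.8 and 2.17 CPM, and Cyp2c69 fell from 5.59, 2.79 and 3.02 CPM to 0.165, 0.263 and 0.224 CPM. The count of rises fell to 2 without replicate 2 of either group and to 3 without replicate 1 of either group or without CCl4 replicate 3. Genes of growth hormone signalling fell in 6 of 12 cases and Igfbp3 and Igfbp1, which bind IGF-1, rose, the latter not without healthy replicate 1 or 2 or CCl4 replicate 1 or 3. The receptor Ghr went from 537, 588 and 534 CPM to 257, 306 and 185 CPM, Igf1, its main target, from 764, 690.2 and 616 CPM to 379.8, 414 and 414 CPM, and Igfals, which keeps IGF-1 in plasma, fell by 1.62 ± 0.11 (adjusted p = 3.59e-07). Of the genes of the sex chromosomes, Ddx3y, on the Y chromosome, held 87.4, 97.3 and 59.4 CPM in healthy and 71.1, 77.7 and 57.4 CPM in CCl4 liver, and Xist, which silences an X chromosome in females, did not exceed 0.265 CPM. All 6 libraries thus held Y chromosome transcripts. Ddx3y was called lower (log2 -0.44, adjusted p = 0.0132) only when healthy replicate 3 was left out.

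Genes of fatty acid oxidation that PPARα controls fell in 23 of 27 cases and Pdk4 and Acot2 rose, the latter not without healthy replicate 1 or 2 or CCl4 replicate 3. The median was -0.94, and with library size alone 16 fell and 3 rose. Acaa1a, a peroxisomal thiolase, went from 150, 135 and 182.5 CPM to 69.6, 68.8 and 59.4 CPM. Pdk4, which holds back glucose oxidation, rose from 4.45, 6.37 and 4.63 CPM to 11.2, 18 and 14.8 CPM. Of 18 genes of fat synthesis 6 rose and 3 fell (Dgat2, which makes triglyceride, Mlxipl and Me1), against 10 and 1 with library size alone. Me1 was not called without replicate 1 of either group or CCl4 replicate 3. Healthy replicate 1 stood apart for Scd1, a fatty acid desaturase, which held 34943, 12650 and 17068 CPM in healthy and 14277, 14976 and 12560 CPM in CCl4 liver and was not called. Scd2, its counterpart outside the adult liver, rose from 26.5, 7.81 and 11.1 CPM to 107, 82 and 157 CPM (3.07 ± 0.41, adjusted p = 7.09e-05). Without healthy replicate 2, 3 genes of this list rose. Of 20 genes of cholesterol synthesis and uptake 3 rose and 4 fell, led by Idi1, Msmo1 and Stard4. Only 1 of the rises was called without replicate 2 or 3 of healthy or replicate 1 of CCl4 liver. With library size alone 6 rose and 3 fell.

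Glucose enzymes particular to hepatocytes fell and several of general glycolysis rose. Of 14 genes of hepatocyte glucose metabolism 10 fell, 5 with library size alone. Of 17 genes of general glycolysis 10 rose, 16 with library size alone, and Pfkfb3, which raises the activator of phosphofructokinase, fell. Pkm, the pyruvate kinase of non-hepatocytes and dividing cells, went from 14, 19.6 and 15.4 CPM to 76.7, 75.5 and 105 CPM (2.39 ± 0.16, adjusted p = 2.66e-07). Of 18 nuclear genes of the respiratory chain 14 fell, but with library size alone 2 fell and 2 rose, so this result rests on the scaling.

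Stress genes gave no common direction. Of 20 genes of NRF2 and antioxidant defence 8 rose and 6 fell. Slc7a11, the cystine importer that feeds glutathione synthesis, went from 0, 0.024 and 0.0369 CPM to 4.12, 12.6 and 3.88 CPM (6.74 ± 0.60, adjusted p = 3.21e-06), and Hmox1, which breaks down haem, from 19, 19.9 and 17.4 CPM to 49.3, 42.2 and 54.9 CPM. Of 13 genes of the ATF4 response 6 rose and 4 fell, led by Chac1 and Vldlr, with 2 lower with library size alone. Psat1, of serine synthesis, rose from 1.03, 0.889 and 0.424 CPM to 16.5, 12.4 and 17.4 CPM. Of 16 chaperones and other genes of the endoplasmic reticulum 3 rose, led by Pdia6 and Hsp90b1, and Herpud1 and Xbp1 fell, against 12 higher and 2 lower with library size alone and 6 higher without healthy replicate 3.

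**Figure D5:**
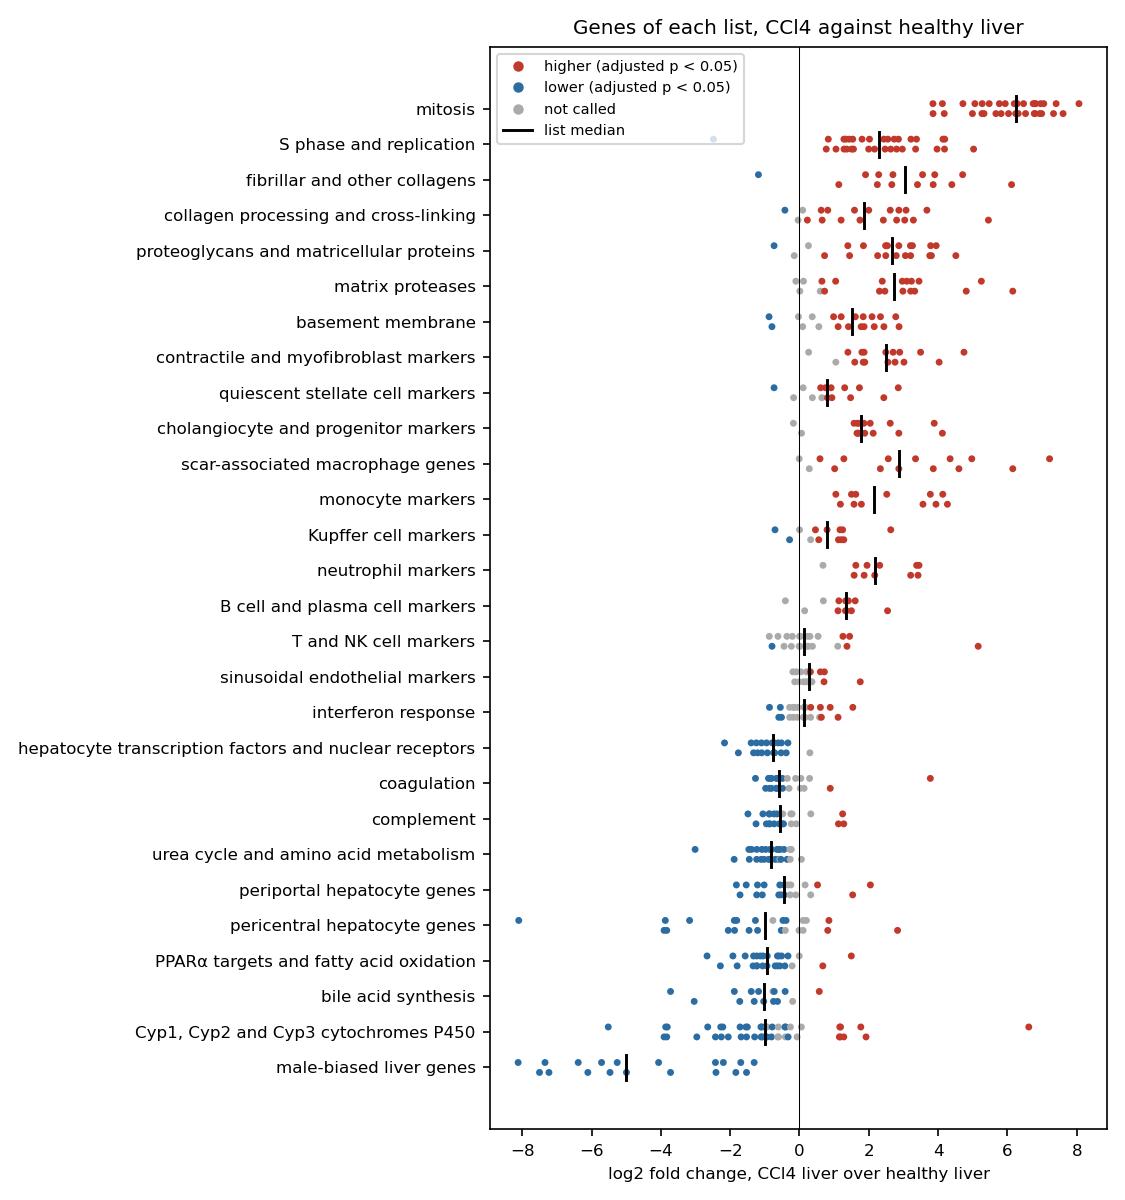
Log2 fold change of CCl4 over healthy liver for each tested member of 28 gene lists, with red for genes called higher, blue for genes called lower (adjusted p under 0.05, limma), grey for genes not called and a black bar at the median of the list. Mitotic genes (median 6.24) and male-biased genes (median -4.99) lie at the ends, and interferon, T cell and sinusoidal endothelial genes lie around 0.

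Genes outside the lists were named by size of change alone. The largest rises with at least 2 CPM and no overlap included, beside mitotic genes and Gpnmb, the division genes Depdc1a, from 0.105, 0.0721 and 0 CPM to 18.7, 14.2 and 18.2 CPM, and Ckap2, and the long noncoding RNA Lockd, which lies beside a cell cycle inhibitor gene and went from 0.0351, 0.0481 and 0 CPM to 9.39, 6.55 and 8.93 CPM. Cfap44, a protein of cilia and flagella (chromosome 16, 44394742 to 44482694), had no read in any healthy library and 10.8, 6.55 and 6.38 CPM in CCl4 liver, at least 132-fold higher if each healthy library is given 3 reads. In all, 29 tested genes had no read in healthy liver, of which 28 were called. Such genes passed the filter only through reads in CCl4 or extract libraries, so that most were called follows largely from the filter. With no read in CCl4 liver 2 genes were tested and 1 was called. Among genes with no healthy read, Thbs4 (thrombospondin 4), at 1.93, 2.84 and 1.14 CPM in CCl4 liver, was at least 32.8-fold higher. Ptprt, a receptor phosphatase, had no read in CCl4 liver and 0.386, 0.409 and 0.221 CPM in healthy liver. Among the largest falls outside the lists were Mup14, Mup15 and Serpina4-ps1, a transcribed pseudogene, which went from 318, 369.8 and 168 CPM to 3.55, 3.66 and 6.58 CPM. Of 604 long noncoding RNA genes 110 rose and 114 fell, a share of 18.2% and 18.9%, against 29.4% and 26.3% of the 13926 protein-coding genes.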

How the data were processed

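The deposited liver values were log2 CPM made by the authors: per the values themselves, they are read counts over the library size times a scaling factor, with a prior count of 2 scaled to library size. The reads were mapped to mm10, per the submitters' processing notes, with aligner and counter not given in the sources used here. RNA was extracted with TRIzol and libraries were made with a stranded Illumina mRNA kit, per the labels' protocols, which speak of organoids. Whole reads were recovered from the deposited log2 values for 100% of values to within 0.05 of a whole number, and CPM was computed from them. A gene was tested when at least 3 liver libraries held the CPM of 10 reads in a library of median size and it had at least 15 reads in all. The test was limma 3.58.1 in R 4.3.3, with a trended variance, on the deposited log2 values of 9 liver libraries (3 per group). P-values were adjusted by Benjamini-Hochberg over 15036 genes. The fit was also run on counts simulated with the same spread for all genes and few genes changed. That setting is simpler than these data, and no result here rests on it. Fits on recovered reads (voom), other scalings, priors, filters, a replicate block and leaving out each library were the alternatives. The gene lists were chosen with earlier results of these data known. Genes were named as markers fixed for each list, as the 3 members of a list with the smallest p, or by size of the difference, gain or loss of CPM, reads in 1 group alone or spread among CCl4 libraries, with further members named as exceptions after their values were seen. The sources used here do not say whether counting used strand, so overlapping antisense genes cannot be told apart. Promoters and coordinates came from RefSeq for GRCm38.p6, 1 promoter per gene, with 11619 of the tested genes matched.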

Additional observations from a re-analysis of the deposited data

How the results depend on the processing

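With library size as the only scaling, higher genes went from 4290 to 7228 and lower genes from 3834 to 1389, which follows from the shift of the median gene by 0.382. The remaining alternatives (another scaling, prior counts of 0.5 and 5, filters, 6 libraries, voom and robust variances) called between 7224 and 8253 genes. Leaving out 1 library gave 7106 to 7963 called genes, 3808 to 4176 higher and 3298 to 3787 lower. With library size alone the small falls of Smad2, Smad4, Slc40a1, Tnfrsf1b and Yap1 turned into differences of 0.04, 0.09, 0.10, 0.07 and 0.09 that were not called. In none of these fits did a called gene become called in the opposite direction. The replicate block called 8221 genes, 4301 higher and 3920 lower, and among the genes named it lost the calls of Ahsg, Lama3 and Cyp2b9 and gained that of Lrat. Deviations of same-numbered healthy and CCl4 libraries from their group means correlated with r = 0.079, 0.038 and 0.139. Of the 6 libraries 5, all but CCl4 replicate 2, correlated best with their own number. Same-numbered CCl4 and extract libraries correlated with r = -0.017, -0.04 and -0.148, and healthy and extract ones with 0.015, -0.003 and 0.008. The labels do not say that the numbers pair the samples, and these values do not decide it. Depth limits genes under 1 CPM, such as most T cell markers, and few healthy reads set the uncertainty of the largest rises.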

Other observations

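Several genes of the circadian clock changed. The sources used here do not give the hour of tissue collection, and a difference in hour between the groups cannot be told apart from the treatment. Of 17 tested, 3 rose and 9 fell. Dbp, a clock output factor, held 42.4, 5.72 and 12.6 CPM in healthy and 0.942, 1.49 and 1.71 CPM in CCl4 liver. Its difference was -3.4 ± 0.56 (limma, adjusted p = 0.000332), -2.63 without healthy replicate 1 and -4.07 without healthy replicate 2. Nr1d1, the repressor REV-ERBα, went from 132, 89.9 and 114 CPM to 12.6, 11.2 and 11.7 CPM, and Npas2, a clock gene that REV-ERBα represses, rose from 1.32, 4.71 and 3.83 CPM to 14.6, 13.2 and 12.4 CPM. Of 13 immediate early genes, which respond within minutes to stimulation, 5 rose (Klf4, Klf6, Fosb, Ier3 and Nr4a1) and Zfp36 fell.

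Iron genes included Hamp, which encodes the hormone hepcidin and fell from 520.0, 495 and 528 CPM to 188, 150 and 191 CPM (-1.55 ± 0.23, limma, adjusted p = 0.000157). Tfrc, the transferrin receptor of dividing cells, rose from 43.6, 40.6 and 51.1 CPM to 96, 86.3 and 88.6 CPM. Of 14 genes of the list 2 rose (Tfrc and Heph) and 5 fell, and 6 rose and 3 fell with library size alone. Without replicate 1 of either group 3 fell. Of 14 genes of fatty acid omega-hydroxylation, the Cyp4 family, 11 fell, among them Cyp4a12b, from 86.4, 51.3 and 73.4 CPM to 1.88, 4.06 and 1.12 CPM. Those that rose were Cyp4a31, Cyp4f16 and Cyp4f18, the last from 0.421, 0.457 and 0.369 CPM to 3.32, 2.96 and 5.14 CPM. Of 14 genes of YAP and TEAD, growth regulators, and of their targets, 8 rose and Yap1, Lats2 and Amotl2 fell, against 11 and 1 with library size alone. Ankrd1, a standard target, went from 0.0877, 0.24 and 0.0553 CPM to 0.727, 0.788 and 3.6 CPM.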
